A study of Rattus norvegicus with 29 samples.

Results

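Satellite glia are the flattened cells that wrap each sensory neuron cell body in a dorsal root ganglion. They take up potassium and glutamate around the neuron, are joined by gap junctions, and share many genes with Schwann cells and with astrocytes. A list of 8 genes used as satellite glia markers was taken by name: Kcnj10, Gja1, Glul, Slc1a3, Fabp7, Apoe, Cdh19 and S100b, and each was represented by its RefSeq transcript with the most reads. All 8 were present among the 16238 gene symbols in the count files, and 7 of them passed the filter on low counts.

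RNA was sequenced from whole C6 to C8 dorsal root ganglia of 29 elderly Lister Hooded rats, 1 library per rat. At week 11 there were 5 rats with a cortical stroke on one side and subcutaneous infusion of neurotrophin-3 (NT3), 5 with stroke and vehicle infusion, and 5 sham rats. At week 5 there were 5 NT3 rats, 5 vehicle rats and 4 sham rats. Ganglia came from the affected side, and no group carried a transgene or a deletion. The sample labels say sham where the series text says naïve, and whether sham rats received an infusion is not given in the sources used here, so stroke and infusion cannot be told apart in comparisons with sham. In whole ganglia, fewer satellite cells and less RNA per cell cannot be told apart either.

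Reads assigned to transcripts numbered 16703574 to 22773108 in 28 libraries and 9555685 in rat 27, a week 11 vehicle rat in which 37.2% of reads were not uniquely aligned, against 16.3% to 19.3% in the others. The tissue label was checked on 17 sensory neuron markers, which summed to 21725 to 26198 CPM (counts scaled to the size of each library), and on 28 other satellite glia genes, which summed to 5921 to 7975 CPM and were all tested. The share of reads outside annotated features ran from 21.0% in rat 8, a week 11 sham rat, to 28.6%. It averaged 26.7% ± 1.40 in NT3, 26.3% ± 1.79 in vehicle and 24.7% ± 3.10 in sham rats at week 11 (SD, n = 5 each), and 27.0% ± 1.21 in NT3 (n = 5), 27.1% ± 1.33 in vehicle (n = 5) and 25.9% ± 0.909 in sham rats (n = 4) at week 5.

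SOX10 and SOX2 act in the glia of the ganglion, and RBPJ carries Notch signals in glial precursors. The promoter windows of the genes, 250 bases before to 50 after an annotated start in RefSeq (GRCr8), were searched on both strands for the SOX words AACAAT and ACAAAG and the RBPJ word TGGGAA. Of the 6 genes with usable counts, Kcnj10, Fabp7 and Cdh19 held a SOX word, and their windows are shown for that reason. Capitals mark every match, and a match on the minus strand is read in reverse complement. The windows lie at chr13:87334260-87334559 on the plus strand, chr20:37669356-37669655 on the plus strand and chr13:28533704-28534003 on the minus strand, and each is printed 5′ to 3′ in the direction of the gene.
Kcnj10: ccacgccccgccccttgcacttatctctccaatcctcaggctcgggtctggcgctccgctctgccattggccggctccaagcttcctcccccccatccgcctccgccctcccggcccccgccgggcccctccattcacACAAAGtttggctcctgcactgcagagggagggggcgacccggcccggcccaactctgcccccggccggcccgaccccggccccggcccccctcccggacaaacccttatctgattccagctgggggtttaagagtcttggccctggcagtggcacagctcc
Fabp7: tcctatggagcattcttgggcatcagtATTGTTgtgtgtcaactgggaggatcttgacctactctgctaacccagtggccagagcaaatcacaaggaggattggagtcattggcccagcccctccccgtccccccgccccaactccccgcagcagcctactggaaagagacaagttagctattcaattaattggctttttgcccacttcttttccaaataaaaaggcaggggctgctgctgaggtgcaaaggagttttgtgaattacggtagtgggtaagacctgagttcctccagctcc
Cdh19: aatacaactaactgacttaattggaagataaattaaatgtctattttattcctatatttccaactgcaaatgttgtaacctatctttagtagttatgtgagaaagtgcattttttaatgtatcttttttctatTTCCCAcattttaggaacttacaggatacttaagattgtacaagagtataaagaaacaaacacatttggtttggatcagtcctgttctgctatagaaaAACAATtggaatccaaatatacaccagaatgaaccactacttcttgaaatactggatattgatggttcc

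Kcnj10 held ACAAAG at base -112 from its start, and Fabp7 held AACAAT on the minus strand at -223. Cdh19 held AACAAT at -19 and TGGGAA on the minus strand at -117. The Cdh19 window was 30% G and C and had no CpG, and the Kcnj10 window was 70.3% G and C with 20 CpG, against a median of 51.7% and 7 CpG over 33469 windows of this length. Gja1, Glul and S100b had no match in the window or windows listed for them. Of 13 windows listed for the members, 6 held either SOX word and 5 held TGGGAA, counting each of the overlapping windows of Slc1a3. Either SOX word was present in 27.7% of all windows and TGGGAA in 25.7%, and no test was made, so the matches describe the letters only.

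No member passed the test in any comparison. In edgeR's quasi-likelihood test, 0 of 98 tests of members (7 members in 14 comparisons) had a Benjamini-Hochberg adjusted p under 0.05. In 13 of the 14 comparisons 0% of all 12556 transcripts were called. The exception was week 11 against week 5 in vehicle rats, in which 106 transcripts were called, 0.844% of those tested. At an unadjusted p under 0.05 the members counted 3 of 98, or 3.06%, against 6.23% over all transcripts and comparisons. By comparison, 1 of 7 members was under 0.05 in NT3 against vehicle rats at week 5 (4.99% of all transcripts) and 0 of 7 at week 11 (1.52%), with the weeks averaged (3.32%) and in the change between the weeks (3.01%). In vehicle against sham rats it was 0 of 7 at week 5 (8.38%) and at week 11 (9.78%), 1 of 7 with the weeks averaged (16.9%) and 0 of 7 in the change between the weeks (3.06%). In NT3 against sham rats it was 0 of 7 at week 5 (2.4%), at week 11 (9.12%) and with the weeks averaged (10.6%). In week 11 against week 5 it was 0 of 7 in NT3 rats (1.58%), 1 of 7 in vehicle rats (8.82%) and 0 of 7 in sham rats (3.73%). The members' shares are thus those of 1 gene or none, and the differences are given below with standard errors (SE), since a missed threshold does not show that the arms were alike.

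Kcnj10 encodes Kir4.1, the inward rectifier through which satellite glia take up potassium. At week 11 it was at 41.9, 47.1, 48.0, 52.0 and 55.8 CPM in NT3 rats, 38.0, 45.9, 46.8, 47.5 and 55.7 CPM in vehicle rats, and 31.5, 38.1, 49.1, 50.7 and 57.4 CPM in sham rats. At week 5 it was at 44.1, 47.0, 47.6, 48.7 and 48.8 CPM in NT3 rats, 27.0, 39.7, 43.7, 44.5 and 48.3 CPM in vehicle rats, and 37.9, 44.98, 48.8 and 52.6 CPM in sham rats. The groups overlapped throughout, and vehicle rat 1 was the lowest of all 29. The group means stood between 49.0 CPM in week 11 NT3 rats and 40.6 CPM in week 5 vehicle rats. The difference of NT3 from vehicle rats was 0.07 (log2, SE 0.14) at week 11 and 0.22 (SE 0.14) at week 5.

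Potassium buffering genes around Kcnj10 gave no call. Of 21 listed genes with Kcnj10 itself, 19 were tested and 0 were called in any comparison, and at week 5 the median log2 fold change of NT3 over vehicle was 0.08, against -0.01 over all transcripts. Kcnj16, the Kir5.1 subunit that pairs with Kir4.1, differed by 1.24 (log2, SE 0.56; edgeR adjusted p = 0.928) between NT3 and vehicle rats at week 5. It differed by -1.25 (SE 0.58; edgeR adjusted p = 0.539) between vehicle and sham rats. These comparisons share the week 5 vehicle rats. Atp1b2, a sodium pump subunit of glia, differed by 0.26 (SE 0.13) between NT3 and vehicle rats at week 5. None of these passed the test.

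Gja1 encodes connexin 43, a gap junction channel between satellite cells. Its level at week 11 was 39.7, 42.2, 46.5, 49.5 and 50.7 CPM in NT3 rats, 37.4, 41.5, 44.7, 46.0 and 62.0 CPM in vehicle rats, and 30.1, 37.7, 41.0, 44.7 and 53.9 CPM in sham rats. The week 5 level was 39.5, 41.0, 45.3, 47.5 and 59.0 CPM in NT3 rats, 32.5, 36.0, 38.1, 41.3 and 44.2 CPM in vehicle rats, and 40.7, 42.3, 44.6 and 46.1 CPM in sham rats. The 62.0 CPM of rat 27 was the highest of the 29 libraries, and without that rat the week 11 vehicle mean was 42.4 ± 3.81 CPM (SD, n = 4). NT3 differed from vehicle rats by 0.27 (log2, SE 0.14; edgeR adjusted p = 0.983) at week 5 and by -0.02 (SE 0.14) at week 11. Without rat 27 the week 11 difference turned to 0.11 (SE 0.13).

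Of 18 gap junction genes in the files 13 were tested and 0 were called in any comparison. Their median log2 fold change of NT3 over vehicle was 0.16 at week 5 with 10 of 13 above 0, and that of vehicle over sham was -0.18 with 5 of 13 above 0, comparisons that share the vehicle rats. The week 11 medians were 0.13 with 10 of 13 above 0 for NT3 over vehicle and 0.05 with 8 of 13 above 0 for vehicle over sham. Over all transcripts, 45.1% were above 0 for NT3 over vehicle and 48.3% for vehicle over sham at week 5. The week 11 shares were 50.7% and 51.0%. Gjb1, connexin 32 of myelinating Schwann cells, differed by 0.28 (SE 0.13; edgeR adjusted p = 0.949) between NT3 and vehicle rats and by -0.37 (SE 0.13; edgeR adjusted p = 0.539) between vehicle and sham rats at week 5. Gjb2 and Gjb6, connexins 26 and 30, differed by 0.74 (SE 0.32) and 0.62 (SE 0.38) between NT3 and vehicle rats at that week.

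**Figure D1:**
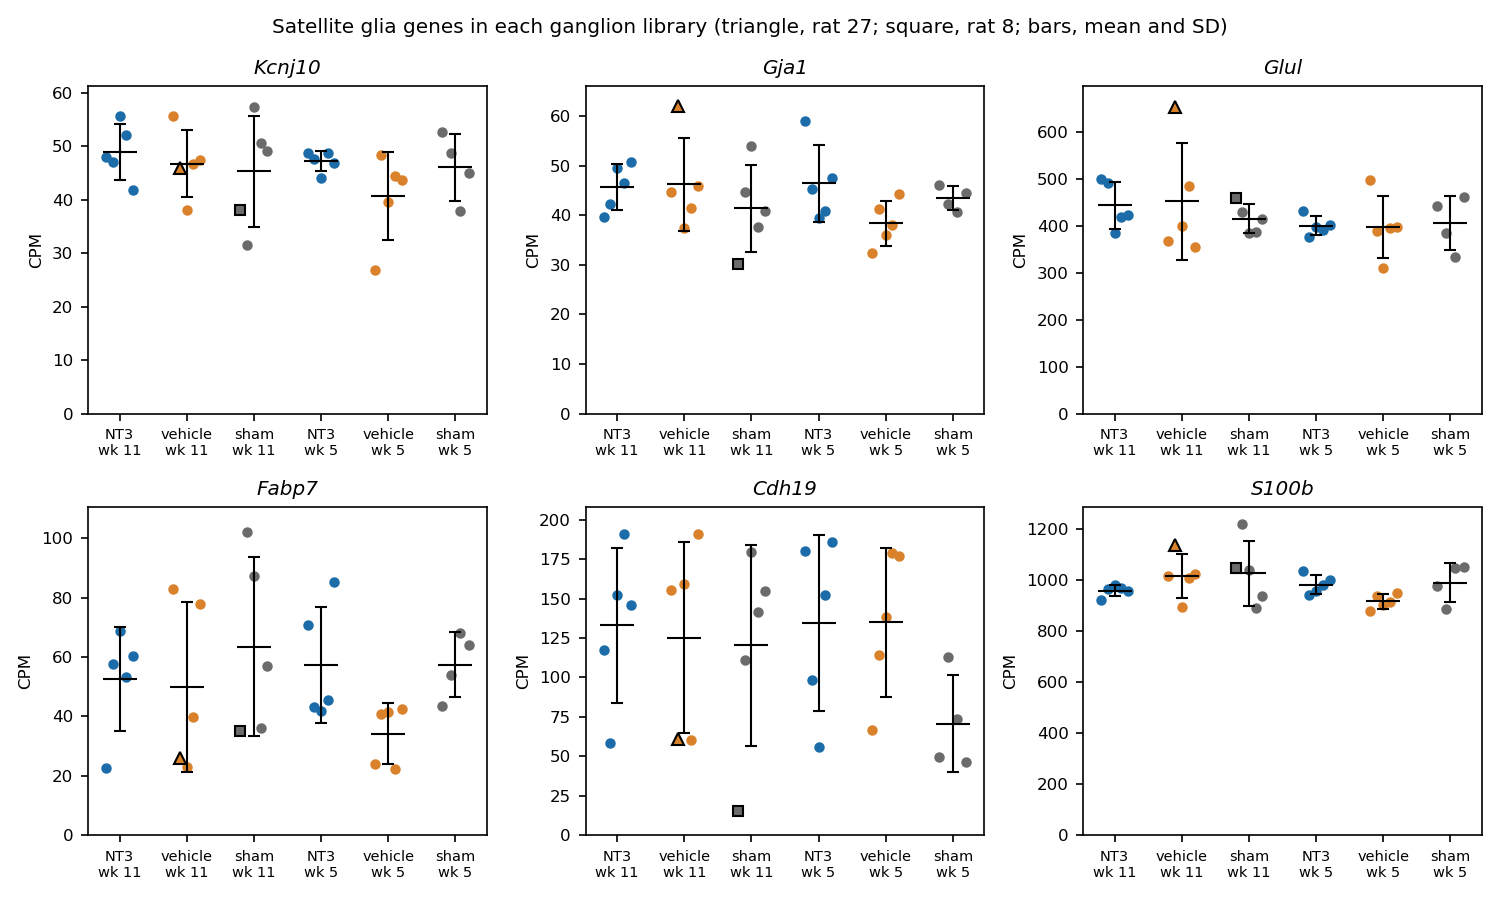
CPM of 6 satellite glia genes in each of the 29 libraries (y axes, from 0), with NT3, vehicle and sham rats of week 11 at the left and of week 5 at the right. Points are rats, bars are the mean and SD of the group, the triangle is rat 27 and the square is rat 8. S100b spans 1.39-fold over the libraries and Cdh19 spans 12.7-fold, and rat 27 is highest for Glul and Gja1.

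Glul encodes glutamine synthetase, which turns glutamate into glutamine inside the satellite cell. Week 11 levels were 385, 418, 423, 491 and 499 CPM in NT3 rats, 354, 367, 399, 485 and 654 CPM in vehicle rats, and 385, 386, 415, 430 and 459 CPM in sham rats. Week 5 levels were 376, 391, 397, 402 and 432 CPM in NT3 rats, 310, 388, 394, 397 and 497 CPM in vehicle rats, and 334, 384, 442 and 462 CPM in sham rats. Every group overlapped every other. NT3 differed from vehicle rats by -0.03 (log2, SE 0.13) at week 11 and by 0.01 (SE 0.13) at week 5. Without rat 27 the week 11 difference turned to 0.14 (SE 0.11). RefSeq lists the pseudogenes Glul-ps1 and Glul-ps2, which may share reads with Glul. Such sharing was not tested and leaves the Glul level uncertain.

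The 654 CPM of Glul in rat 27 stood above the 310 to 499 CPM of the other 28 libraries, and it set the week 11 vehicle mean, which was 452 ± 124 CPM (SD, n = 5) with the rat and 401 ± 58.7 CPM (n = 4) without it. Rat 27 also held transcripts of central nervous system cells. Mobp and Opalin, made by oligodendrocytes, were at 89.4 and 28.5 CPM in rat 27, against at most 1.39 and 0.430 CPM in the other libraries. Nrgn, a forebrain neuron gene, was at 64.9 CPM, against at most 2.65 CPM. The 20 central nervous system markers summed to 1216 CPM in rat 27, against 621 to 775 CPM in the others, and the 18 macrophage markers to 1636 CPM, against 214 to 729 CPM. The astrocyte marker Aqp4 had 0 reads in any library. Whether counts of this gene can show astrocytes here was not tested, so they are not read as absence of those cells. The part of these cells in the Glul and Gja1 levels of rat 27 was not tested.

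**Figure D2:**
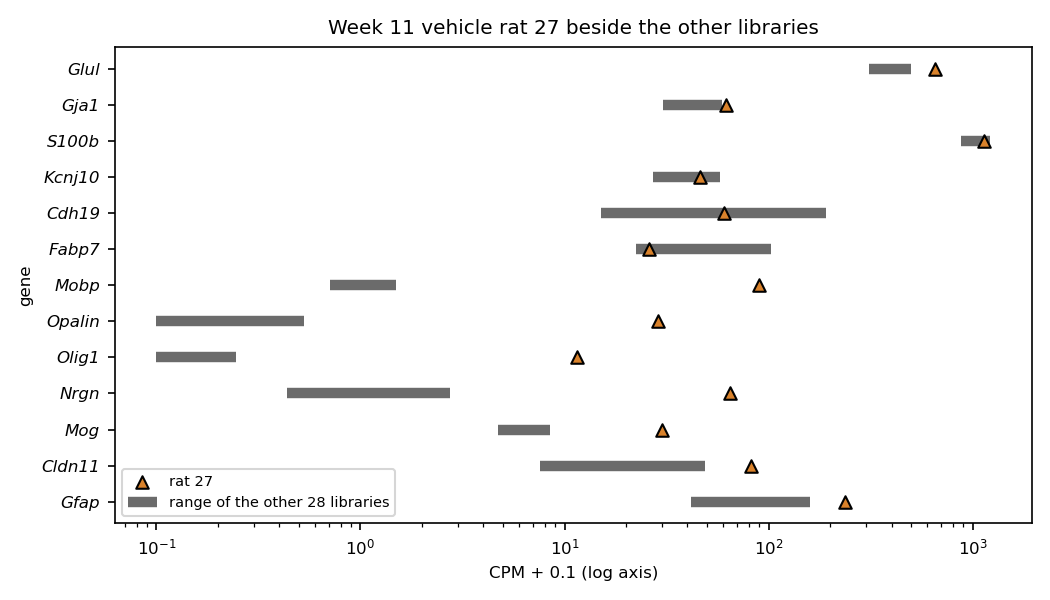
CPM + 0.1 on a log axis of 6 satellite glia genes and 7 central nervous system markers, with rat 27 as a triangle and the range of the other 28 libraries as a bar. Rat 27 lies to the right of the bar for Glul, Gja1 and the 7 markers drawn. Mobp was at 89.4 CPM in rat 27, against at most 1.39 CPM in the other libraries. The 7 markers were picked from a list of 20 and do not stand for the whole list.

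Slc1a3 encodes GLAST, the glutamate transporter of satellite glia and astrocytes. Its 4 transcripts held 4 reads in all, 1 read in each of 4 libraries and none in 25, and the limit that a count of 0 allows (3 reads) was 0.132 to 0.314 CPM depending on the library. The 506 genes that have more than 1 transcript in the files held 82.5 reads in the median, against 7102.5 reads for the 15732 genes with 1 transcript. The Slc1a3 reads are not taken as a measure of its RNA, and no fold change is given.

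Among 21 glutamate cycle genes, 18 were tested and 0 were called in any comparison. The median log2 fold change was -0.01 for NT3 over vehicle at week 11 and 0.00 at week 5, against 0.00 and -0.01 over all transcripts. Slc38a5, a glutamine transporter, differed by 0.81 (SE 0.37; edgeR adjusted p = 0.951) between NT3 and vehicle rats at week 5. Slc6a11, the GABA transporter GAT-3 of glia, differed by 0.25 (SE 0.14) in that comparison and by -0.31 (SE 0.14; edgeR adjusted p = 0.539) between vehicle and sham rats at week 5. Gad1, which makes GABA, differed by -1.17 (SE 0.46) between NT3 and vehicle rats at week 11. The vehicle group of that week holds rat 27, and the part of its central nervous system cells in this difference was not tested.

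Fabp7 encodes the brain lipid-binding protein, a fatty acid carrier of glia. At week 5 it was at 41.8, 43.1, 45.4, 70.7 and 85.1 CPM in NT3 rats, 22.3, 23.9, 40.9, 41.5 and 42.4 CPM in vehicle rats, and 43.5, 53.8, 64.2 and 68.0 CPM in sham rats. The 5 vehicle rats all lay below the 4 sham rats, and this was the only non-overlap between groups among the 7 members in 9 pairs of groups. Groups were apart in this way for 3.87% of all transcripts in that comparison. In the pairs of groups in which 0 members were apart, the share of all transcripts was 1.94% for NT3 against vehicle and 1.12% for NT3 against sham rats at week 5. The week 11 share was 0.287% for NT3 against vehicle, 0.398% for NT3 against sham and 0.255% for vehicle against sham rats. Between the weeks it was 0.972% in NT3, 2.64% in vehicle and 0.494% in sham rats. NT3 and vehicle rats overlapped narrowly, with 41.8 CPM in the lowest NT3 rat and 42.4 CPM in the highest vehicle rat. At week 11 it was at 22.6, 53.4, 57.7, 60.4 and 68.9 CPM in NT3 rats, 23.0, 25.8, 39.7, 77.8 and 82.8 CPM in vehicle rats, and 35.0, 36.1, 56.9, 87.4 and 102 CPM in sham rats, with full overlap.

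Fabp7 differed by 0.74 (log2, SE 0.36) between NT3 and vehicle rats at week 5, with an unadjusted edgeR p of 0.0486 and an adjusted p of 0.983, where 4.99% of all transcripts had an unadjusted p under 0.05. It differed by -0.75 (SE 0.38; edgeR adjusted p = 0.539) between vehicle and sham rats at week 5 and by -0.55 (SE 0.26; edgeR adjusted p = 0.294) with the weeks averaged. The unadjusted edgeR p of the averaged difference was 0.0449, where 16.9% of all transcripts were under 0.05. The NT3 and sham rats of week 5 had means of 57.2 ± 19.6 CPM (SD, n = 5) and 57.4 ± 11.0 CPM (n = 4). The change of the NT3 difference between weeks, week 11 minus week 5, was -0.67 (SE 0.50).

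Summed markers of some other cells were also low in vehicle rats at week 5. The 18 macrophage markers summed to 324 to 502 CPM in NT3 rats, 214 to 303 CPM in vehicle rats and 324 to 521 CPM in sham rats, so the vehicle rats lay below both other groups. The 12 fibroblast markers summed to 1206 to 1631 CPM in NT3 rats, 869 to 1106 CPM in vehicle rats and 1101 to 1472 CPM in sham rats. The fibroblast ranges of vehicle and sham rats overlapped slightly. Other lists overlapped more clearly. Endothelial and pericyte markers summed to 425 to 525 CPM in vehicle and 418 to 560 CPM in sham rats. Nonmyelinating Schwann cell markers summed to 2407 to 2748 CPM and 2660 to 2773 CPM. Sensory neuron markers overlapped as well. The part of macrophages and fibroblasts in the Fabp7 values was not tested. Among 21 fatty acid and retinoid binding genes, 16 were tested and 0 called. Crabp2, which carries retinoic acid, differed by 0.54 (SE 0.19; edgeR adjusted p = 0.723) between NT3 and vehicle rats at week 5, and by -0.59 (SE 0.20; edgeR adjusted p = 0.539) between vehicle and sham rats.

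Apoe encodes apolipoprotein E, the lipid carrier made by glia and macrophages. Its 5 transcripts held 611 reads in all, and the one with the most, 360 reads, had 5 to 19 reads a library. That transcript lay between 0.292 and 1.10 CPM, both ends being week 5 NT3 rats, and its log2 fold changes stayed between -0.34 and 0.27 over the 14 comparisons. As for Slc1a3, the counts do not measure the full RNA of the gene.

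Lipoprotein handling was the only one of the 9 lists around the members with a call, in 1 of 126 combinations of list and comparison. In week 11 against week 5 vehicle rats, 3 of 24 tested genes were called higher and 0 lower, where 0.844% of all transcripts were called. Nr1h3, the sterol-sensing liver X receptor alpha, rose by 0.45 (log2, SE 0.10; edgeR adjusted p = 0.0282). Apod, a lipid carrier of glia and nerve fibroblasts, rose by 0.67 (SE 0.15; edgeR adjusted p = 0.0308), and Pltp, which transfers phospholipids, by 0.85 (SE 0.20; edgeR adjusted p = 0.0311). Without rat 27 the values were 0.44 (edgeR adjusted p = 0.107), 0.55 (edgeR adjusted p = 0.174) and 0.66 (edgeR adjusted p = 0.197), so none of the 3 calls remained. Over all transcripts the 106 calls of this comparison fell to 1 without rat 27, and likewise to 1 without week 5 vehicle rat 1. In the same comparison 12 of 17 tested macrophage markers were called higher, with a median log2 fold change of 1.37 over the 17, and without rat 27 only Tyrobp of the 12 had an adjusted p under 0.05 (0.00661). The part of macrophages in the 3 lipoprotein genes was not tested.

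Cdh19 encodes cadherin 19, an adhesion molecule of neural crest glia and their precursors. It varied most of all members, from 15.03 CPM in rat 8 to 191 CPM, or 12.7-fold. At week 11 it was at 58.6, 117, 146, 152 and 191 CPM in NT3 rats, 60.4, 60.6, 156, 159 and 191 CPM in vehicle rats, and 15.03, 111, 142, 155 and 179 CPM in sham rats. At week 5 it was at 56.1, 98.6, 153, 180 and 186 CPM in NT3 rats, 66.4, 114, 138, 177 and 179 CPM in vehicle rats, and 46.5, 49.6, 73.7 and 113 CPM in sham rats. Week 5 sham rats had the lowest mean, 70.7 ± 30.7 CPM (SD, n = 4), yet their range overlapped that of all other groups. The SD of log2 CPM within groups was 0.876, and 98.8% of tested transcripts had a smaller one.

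At week 5 Cdh19 differed by 0.93 (log2, SE 0.49) both between NT3 and sham rats (edgeR adjusted p = 0.810) and between vehicle and sham rats (edgeR adjusted p = 0.539), comparisons that share the 4 sham rats. NT3 and vehicle rats differed by 0.00 (SE 0.46) at week 5 and by 0.08 (SE 0.46) at week 11, which turned to -0.09 (SE 0.47) without rat 27. Between the weeks in sham rats the difference was 0.77 (SE 0.49; edgeR adjusted p = 0.988). One alternative, limma voom with quality weights, which gives libraries that stand apart less weight, called 2 of these: vehicle over sham at week 5 at 1.22 (voom adjusted p = 0.0415) and week 11 over week 5 in sham rats at 1.29 (voom adjusted p = 0.0174). DESeq2 gave adjusted p of 0.499 and 0.998 for them. Voom called 1079 and 2209 of all 12556 transcripts in these comparisons, against 0 each in edgeR.

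Cdh19 followed the share of reads outside annotated features, a property of the library. Pearson's r was 0.82 and Spearman's rho 0.84 over 29 libraries, each with a two-sided permutation p of 1e-05, the smallest that 100000 permutations can give (adjusted over 7 members, 7e-05). Without rats 8 and 11, the libraries farthest from the median share, r was 0.89, and in deviations from group means it was 0.85. In each of the 6 groups the rat with the highest share had more Cdh19 than the rat with the lowest, such as 186 CPM at 28.1% against 56.1 CPM at 25.2% in week 5 NT3 rats. The relation was not particular to Cdh19, since 12.8% of tested transcripts had a larger r in size. With the share as a covariate, the Cdh19 difference at week 5 was 0.47 (SE 0.30; edgeR adjusted p = 0.778) between vehicle and sham rats, and the difference of week 11 from week 5 in sham rats was 1.10 (SE 0.31; edgeR adjusted p = 0.0719).

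**Figure D3:**
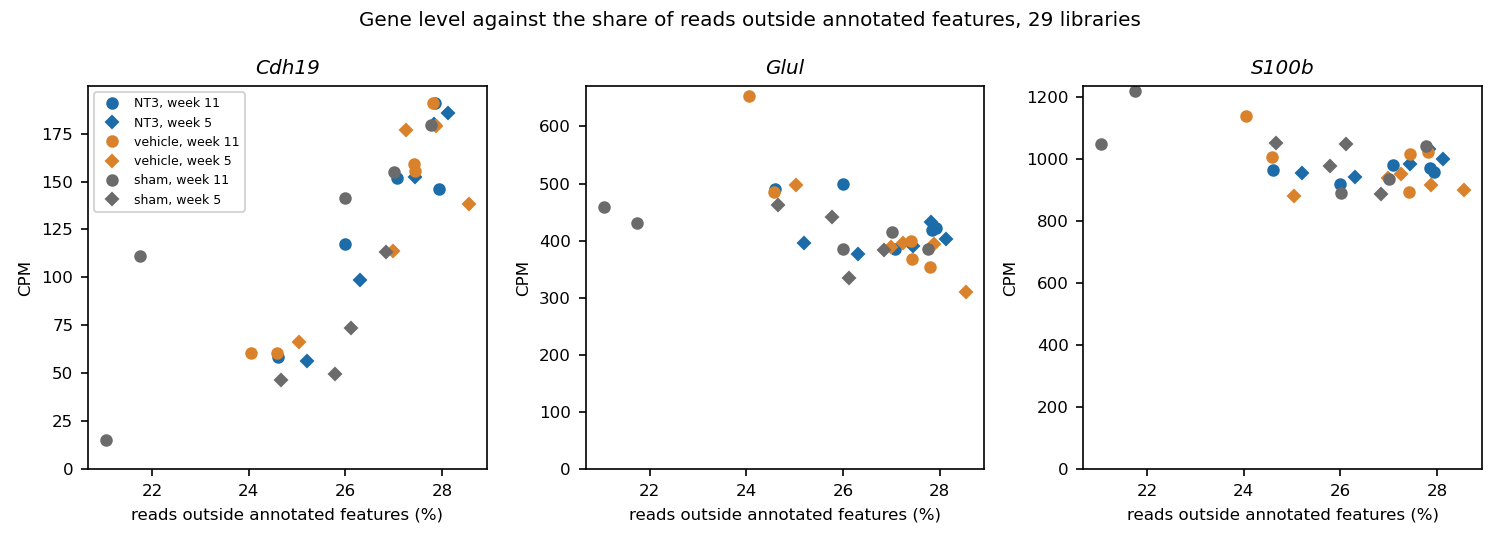
CPM of Cdh19, Glul and S100b (y axes, from 0) against the percent of reads outside annotated features in the same library (x axes), with NT3, vehicle and sham rats as blue, orange and grey, circles for week 11 and diamonds for week 5. Cdh19 climbs with the share over the 29 libraries (Pearson's r 0.82), and Glul descends (r -0.56).

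Glul ran the other way, with r of -0.56 and rho of -0.53 (permutation p = 0.00246 and 0.00426, adjusted 0.00861 and 0.00994), and r was -0.69 without rats 8 and 11. Within week 5 NT3 rats r for Glul was 0.48, the reverse sign, and within each other group it lay between -0.94 and -0.67. S100b had r of -0.49 (permutation p = 0.00771, adjusted 0.0135) and Kcnj10 r of 0.45 (permutation p = 0.0169, adjusted 0.0237). Without rats 8 and 11 these were -0.21 and 0.20, so the size of both depended on those libraries. In deviations from group means, with those rats kept, r was -0.42 for S100b and 0.57 for Kcnj10. Among groups without those rats, r for Kcnj10 was 0.76 in week 5 NT3 and 0.72 in week 5 vehicle rats, and at most 0.06 in the others. Apoe had r of 0.50 (permutation p = 0.00589, adjusted 0.0135). For Fabp7 and Gja1 r was 0.12 and 0.27 (permutation p = 0.532 and 0.151). A larger r in size was found in 45.8% of tested transcripts for Glul, 52.5% for Apoe, 53.3% for S100b and 58.2% for Kcnj10, so relations of this size were common over all transcripts. Of 20 cadherins and catenins, all tested, 0 were called in any comparison. Cdh1 (E-cadherin) differed by 0.23 (SE 0.09; edgeR adjusted p = 0.761) between NT3 and vehicle rats and by -0.26 (SE 0.09; edgeR adjusted p = 0.539) between vehicle and sham rats at week 5.

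S100b encodes a calcium-binding protein found in satellite glia, Schwann cells and some neurons. It was the steadiest member, with a within-group SD of 0.104 on the log2 scale. At week 11 it was at 920, 958, 966, 970.2 and 980.2 CPM in NT3 rats, 893, 1007, 1018, 1022 and 1138 CPM in vehicle rats, and 889, 936, 1041, 1049 and 1219 CPM in sham rats. At week 5 it was at 944, 955, 982, 999 and 1034 CPM in NT3 rats, 879, 902, 915, 938 and 951 CPM in vehicle rats, and 887, 976, 1049 and 1051 CPM in sham rats. Vehicle rats of week 11 differed from those of week 5 by 0.15 (SE 0.07), with an unadjusted edgeR p of 0.0409 and an adjusted p of 0.524, where 8.82% of all transcripts were under 0.05. Its week 11 vehicle mean was 1015 ± 86.7 CPM (SD, n = 5) with rat 27 and 985 ± 61.6 CPM (n = 4) without it. The difference between the weeks was 0.10 (SE 0.07) without rat 27, with an unadjusted p of 0.150 and an edgeR adjusted p of 0.9999. NT3 differed from vehicle rats by -0.08 (SE 0.07) at week 11 and by 0.10 (SE 0.07) at week 5.

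The S100 family, S100b included, gave 0 calls among 14 tested of 15 in the files. Their median log2 fold change was 0.15 for NT3 over vehicle and -0.18 for vehicle over sham at week 5, with 12 and 2 of 14 above 0, and -0.11 and -0.18 at week 11, with 2 and 4 of 14 above 0. The 2 comparisons of a week share its vehicle rats. Over all transcripts the shares above 0 were 45.1% and 48.3% at week 5, and 50.7% and 51.0% at week 11. S100a16 differed by -0.33 (SE 0.11; edgeR adjusted p = 0.539) between vehicle and sham rats at week 5 and by -0.26 (SE 0.10; edgeR adjusted p = 0.507) at week 11.

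**Figure D4:**
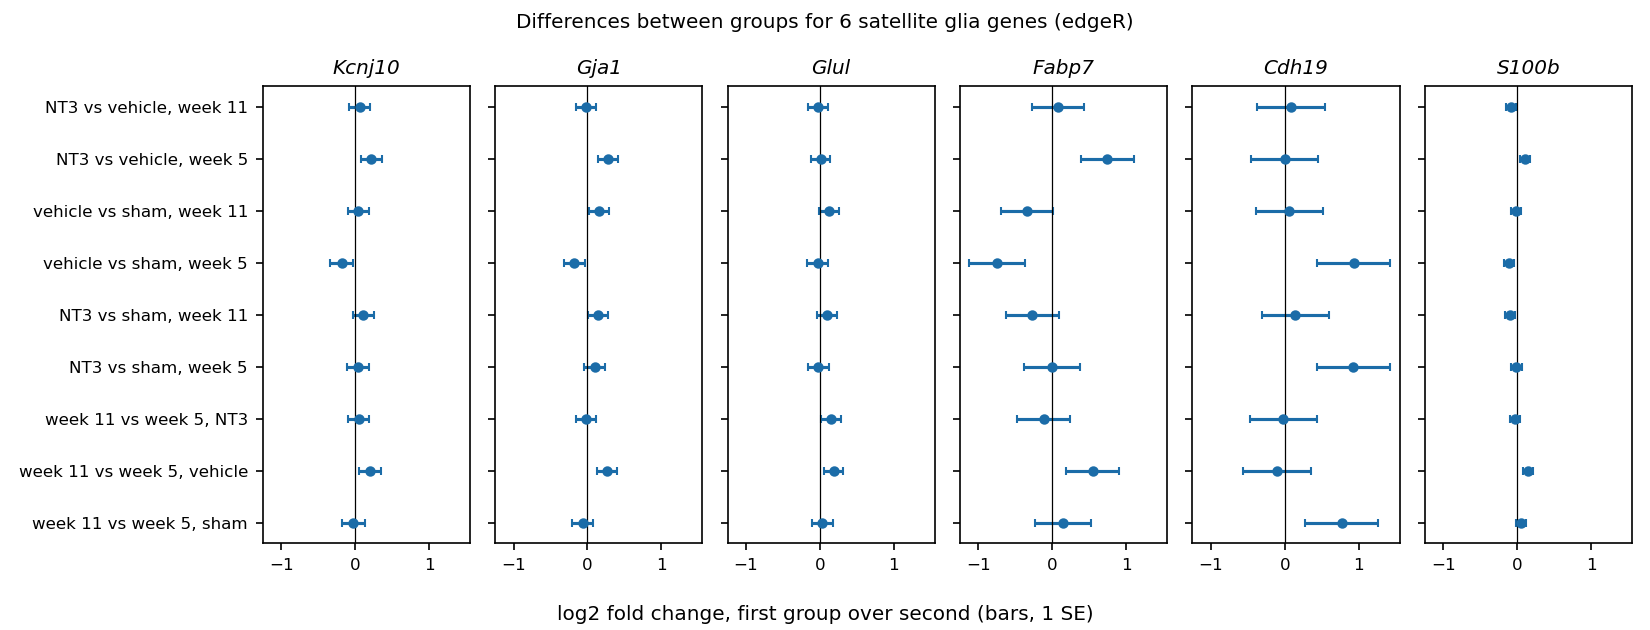
Log2 fold change of the first group over the second (x axes; point, edgeR estimate; bar, 1 SE) for 6 satellite glia genes in 9 comparisons (rows). The Fabp7 and Cdh19 bars are the widest, with an SE of 0.36 and 0.46 for NT3 against vehicle at week 11, and no difference passed the test.

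The 28 other satellite glia genes, among them Sox10 and Erbb3, gave 0 calls in any comparison. Their median log2 fold change of NT3 over vehicle was 0.03 at week 11 and 0.11 at week 5, with 19 of 28 above 0 each time. Over all transcripts 50.7% were above 0 at week 11 and 45.1% at week 5. Bcan, which encodes the matrix proteoglycan brevican, differed by 0.28 (SE 0.12; edgeR adjusted p = 0.917) and Gpr37l1, a receptor of glia, by 0.22 (SE 0.10; edgeR adjusted p = 0.951) between NT3 and vehicle rats at week 5. Of 12 genes of glial reactivity, all tested, 0 were called. Gfap, the intermediate filament that rises in reactive satellite glia, differed by 0.57 (SE 0.33) between NT3 and vehicle rats at week 5 and by -0.39 (SE 0.33) at week 11, where rat 27 held 237 CPM against 41.5 to 159 CPM in the other 28 libraries.

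The members did not move as 1 block. Of 21 pairs among the 7 members, 14 had a positive Pearson's r of log2 CPM over 29 libraries, with a median of 0.25. The highest were Apoe with Cdh19 at 0.52, Fabp7 with S100b at 0.52, and Kcnj10 with Gja1 at 0.50, and the lowest was Glul with Cdh19 at -0.47. Without rat 27, Fabp7 had r of 0.70 with S100b and 0.69 with Gja1, against 0.52 and 0.47 with it. These are descriptions over libraries that share 1 scaling, and no p is given. Pearson's r with the unannotated share was 0.82 for Cdh19, 0.50 for Apoe and -0.56 for Glul. It was 0.45 for Kcnj10, -0.49 for S100b, 0.27 for Gja1 and 0.12 for Fabp7. The part of that library property in the r of Apoe with Cdh19 and of Glul with Cdh19 was not tested. The Apoe values rest on 5 to 19 reads a library, which do not measure the full RNA of the gene.

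**Figure D5:**
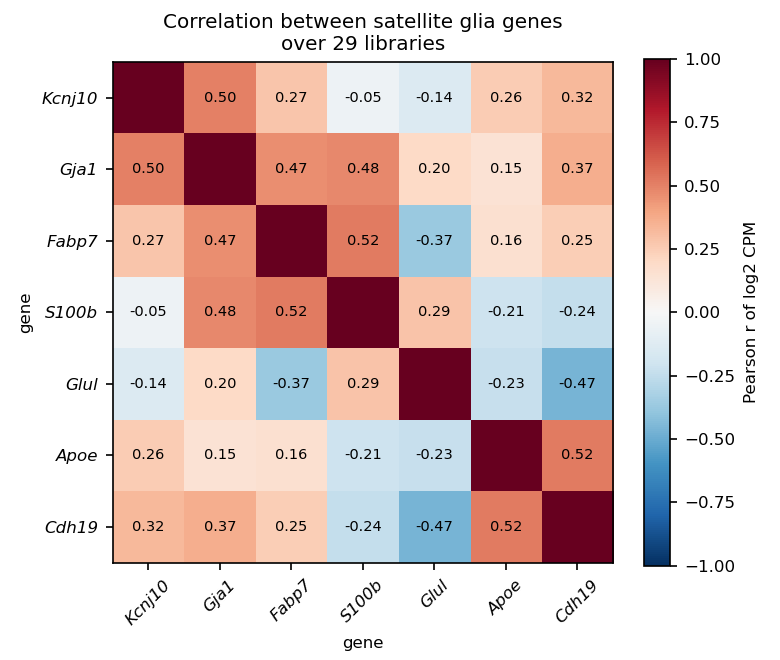
Pearson's r of log2 CPM between 7 satellite glia genes over 29 libraries, as colour (scale -1 to 1) and number, with genes on both axes. Fabp7, Gja1 and S100b are positive with one another (0.47 to 0.52), and Glul with Cdh19 is lowest at -0.47.

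Among 11003 tested transcripts of at least 1 CPM, those most like the mean profile of the members were Plpp3 (r 0.86), Gbp5 (0.84) and Lpcat2 (0.84). S100b was most like Pea15 (0.90), Kcnj10 most like Septin8 (0.89), Fabp7 most like Lmo4 (0.87), Glul most like Mtarc2 (0.85) and Gja1 most like Plpp3 (0.82). Cdh19 was most like Smc3 (0.99), Luc7l3 (0.98) and Srek1 (0.98), a cohesin subunit and factors of RNA splicing. Apoe, at its low counts, was most like Tmem202 (0.69). These are the highest of many correlations and carry no test.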

How the data were processed

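Poly-A enriched, stranded libraries were made from whole C6 to C8 ganglia, 1 per rat, per the labels' protocols. Build rn6 (Rnor_6.0) and the tools HTSeq, Picard, TopHat2 and bcl2fastq 1.8.4 are listed in the submitters' processing notes, which were used as labels only. The authors deposited whole-number read counts per RefSeq transcript, without normalization. A smaller table of 15308 transcripts held identical counts (443932 of 443932 values), so the larger files of 18092 transcripts were used. Symbols came from a RefSeq table of GRCr8 (17090 transcripts matched), used for names only. Transcript lengths were not used here, so levels are not compared between genes.

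The filter filterByExpr of edgeR 4.0.16 (R 4.3.3), at a minimum count of 10 and a total of at least 15, kept 12556 transcripts. TMM factors ran from 0.974 to 1.061. All 29 libraries entered 1 quasi-likelihood fit of 6 group means. Each of 14 contrasts had a two-sided test with Benjamini-Hochberg adjustment over the 12556 transcripts and a threshold of 0.05. The SE is the log2 fold change divided by the square root of F. The 29 rats were separate animals, so p-values measure the spread between rats, and the rat numbers paired no samples. Log2 CPM used a prior count of 2. Alternatives were DESeq2 1.42.0, limma 3.58.1 (voom with quality weights), other scalings, no filter, a covariate, summed transcripts and libraries left out. The fit was tested on simulated data. The members and lists were chosen with earlier results of these data known. The text named all members, the called genes of each list or else some of the 4 with the smallest p, the genes most like each member, and central nervous system markers of the library that stood apart; Sox10, Erbb3 and the -ps pseudogenes are named without values. Some genes that the rule names are left out of the text. Matches of promoter words to the RefSeq windows were exact. Counting limits cover counting error only, since duplicates were removed without molecular identifiers being named in the sources used here.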

Additional observations from a re-analysis of the deposited data

How the results depend on the processing

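Under limma voom with quality weights, 1 member (Cdh19) was called in vehicle against sham rats at week 5 and 1 (Cdh19) in week 11 against week 5 sham rats, both of which had 0 in edgeR. That method called 1079 and 2209 of all 12556 transcripts in these comparisons, against 0 each in edgeR and 10 and 1 in DESeq2. The cause was not tested. In all other settings and comparisons the members called stayed at 0, as they did in every fit that left out 1 library (range 0 to 0). Of 2464 alternative values of the members' differences, 2426 lay within 1 SE of the reported one, 36 moved further and 2 became calls. The sign changed under some setting for 50 of 98 differences, the largest being Cdh19 in NT3 against sham rats with weeks averaged, which was 0.54 and became -0.02 once the unannotated share entered as covariate. In vehicle rats, week 11 against week 5, 106 transcripts were called, against 1 without rat 27, 24 without rats 8 and 27, 15 without rat 27 and with the covariate, 0 with only the 2 groups in the fit and 201 with DESeq2, and leaving out 1 library gave 1 to 214. The settings without rats 8 and 27 and with the covariate without rat 27 were chosen after seeing the data. No paired analysis was possible because each rat number belongs to 1 library. Differences between 2 groups had an SE of 0.36 to 0.49 for Fabp7 and Cdh19, and Apoe and Slc1a3 were limited by their reads.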
